A study of Mus musculus with 5 samples.

Results

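The replication-dependent histone genes of 4T1 mouse breast cancer cells were compared between 2 TAZ knockout (TAZ-KO) clones and 3 wild-type (WT) clones. They were taken as every listed gene whose symbol starts with Hist1h, Hist2h, Hist3h or Hist4h, which gave 50 of the 13143 genes in the table, of which 4 encode histone H1, 11 H2A, 13 H2B, 10 H3 and 12 H4. RNA was sequenced from cultured cells without any treatment, with 1 library per clone, and 4T1 is a tetraploid mammary carcinoma line of the mouse. Both TAZ-KO clones come from 1 single-cell clone that expressed Cas9 under blasticidin selection, and this clone was given, by lentivirus and puromycin selection, 1 guide RNA that targets Wwtr1, which encodes TAZ. The WT clones are single-cell clones of 4T1-Cas9 cells that had received no guide RNA, so all 5 libraries carry Cas9 while the guide vector and puromycin go with the genotype and cannot be told apart from it. Whether the WT clones come from the same Cas9 clone is not stated. Each group is only as broad as its clones, and p-values reflect how far these clones differ among themselves. For 2 libraries against 3, an exact permutation test has 10 splits and cannot give a p below 0.1.

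Replication-dependent histone genes supply the histones that package newly made DNA, and their transcripts accumulate in S phase and are degraded when replication stops. They lie in clusters, have no introns and end in a conserved stem-loop instead of a poly(A) tail. The stem-loop is bound by SLBP, which acts with the U7 small nuclear ribonucleoprotein in forming the transcript's 3' end and then in its translation and decay. Some of these genes are also known to give polyadenylated transcripts, among others in cells that leave the cell cycle. TAZ is a transcriptional co-activator of the Hippo pathway that acts with TEAD factors.

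Total counts were between 14695384 and 16452147 per library, and 3 counts, the limit that a count of 0 allows, corresponded to between 0.184 and 0.203 CPM (CPM, counts scaled to a common library total with TMM factors). All levels are CPM or raw counts, which are not divided by transcript length, and are compared between clones and not between genes. Levels of Wwtr1 itself were 129 and 152 CPM in TAZ-KO, against 659.7, 312 and 315 CPM in WT clones 1, 2 and 3 (log2 fold change -1.61, SE 0.40; adjusted p = 0.19 with edgeR and 0.0056 with DESeq2). Of the epithelial markers Epcam, Krt8, Krt18, Cdh1, Krt14 and Krt7, 6 of 6 were listed, with a summed level of 3461 to 3539 CPM in TAZ-KO and 2314 to 4519 CPM in WT clones. The erythroid markers and Cd3e, Kdr, Dcn and Pdgfrb were not listed, and the leukocyte gene Ptprc had 8 and 1 counts in TAZ-KO clones, against 8, 3 and 0 counts in WT clones. Other markers were found. The fibroblast gene Pdgfra had 1374 and 1344 counts in TAZ-KO clones, against 1729, 618 and 427 counts in WT clones. The leukocyte gene Cd68 had 139 and 149 counts in TAZ-KO clones, against 173, 491 and 256 counts in WT clones. Col1a1 (6 to 110 counts) and Lyz2 (16 to 83 counts) were lower, and Itgam, Pecam1, Cdh5 and Col1a2 had between 0 and 21 counts in every library. The labels name the library preparation as mRNA sequencing and the study's methods describe barcoding at 3' ends, and which ends of histone transcripts were primed was not tested.

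The end of a histone transcript is shown first, because it sets this family apart from other mRNAs. The consensus of the stem-loop (16 letters with a 6-letter stem on each side) was found in the GENCODE transcript of 35 of the 50 genes, between 21 and 54 bases after the stop codon, whereas 99 of 21877 coding genes hold it (0.45%). Each line gives 30 bases of the transcript strand, 5′ to 3′, with the stem-loop in capitals, for the genes that the results turn on.
Hist1h4i: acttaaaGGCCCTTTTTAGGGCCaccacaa
Hist1h3d: ccccaaaGGCTCTTTTCAGAGCCacccccg
Hist1h2bp: acacaaaGGCTCTTTTCAGAGCCacccaca
Hist1h2bg: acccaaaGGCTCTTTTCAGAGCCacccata
Hist1h2be: aaccaaaGGCTCTTTTCAGAGCCacccaac
Hist1h1c: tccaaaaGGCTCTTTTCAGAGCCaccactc
Hist3h2a: caccaaaGGCTCTTTTCAGAGCCacccaca
The last 6 share their 16 letters, which 17 of the 35 transcripts hold, while Hist1h4i has another stem and loop that it shares with Hist2h4 only. Hist1h3d and Hist1h2bp, which were far higher in TAZ-KO clones, carry the same stem-loop letters as Hist1h1c and Hist3h2a, which were not. The part of the stem-loop in the differences was not tested. Of the 15 transcripts without the consensus, 12 are annotated only up to the stop codon, and the others are Hist1h2bc, Hist2h2be and Hist2h3b.

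The counts of all 50 genes together were about 3-fold higher in TAZ-KO clones. They summed to 2070 and 2081 counts in TAZ-KO clones 1 and 2, against 849, 674 and 664 counts in WT clones 1, 2 and 3. This corresponds to 136.8 and 138.8 CPM in TAZ-KO against 57.6, 41.3 and 41.0 CPM in WT, a ratio of the means of 2.96, so that both TAZ-KO clones were close to each other and above every WT clone. WT clone 1 was the nearest to them, and the ratio was 3.35 without it and 2.39 over it alone. Even so, histone counts were 0.014% of all counts in both TAZ-KO clones and between 0.004% and 0.006% in WT clones. In bulk libraries, more cells in S phase and more histone RNA per cell cannot be told apart. As it was not tested which transcript ends were primed, these counts cannot be read as total histone RNA.

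The difference was unequal between histone types. H4 was at 28.4 and 30.3 CPM in TAZ-KO clones, against 5.56, 4.85 and 4.93 CPM in WT clones (5.74-fold). H2B was at 45.7 and 50.1 CPM in TAZ-KO clones, against 14.9, 7.67 and 6.60 CPM in WT clones (4.94-fold). H3 was at 21.5 and 18.7 CPM in TAZ-KO clones, against 6.24, 3.62 and 4.07 CPM in WT clones (4.33-fold). In these core histones the clones of the genotypes lay far apart. H2A, which pairs with H2B in the nucleosome, was at 21.6 and 19.8 CPM in TAZ-KO clones, against 14.99, 11.5 and 11.4 CPM in WT clones (1.64-fold). The linker histone H1 was at 19.6 and 19.9 CPM in TAZ-KO clones, against 15.9, 13.7 and 13.9 CPM in WT clones (1.36-fold). In both of these types the TAZ-KO clones were above every WT clone, but the counting intervals of TAZ-KO clone 1 and WT clone 1 met for H1 (17.4 to 21.9 CPM in TAZ-KO clone 1, 14.0 to 18.1 CPM in WT clone 1; exact Poisson, 95%, counting error only).

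**Figure D1:**
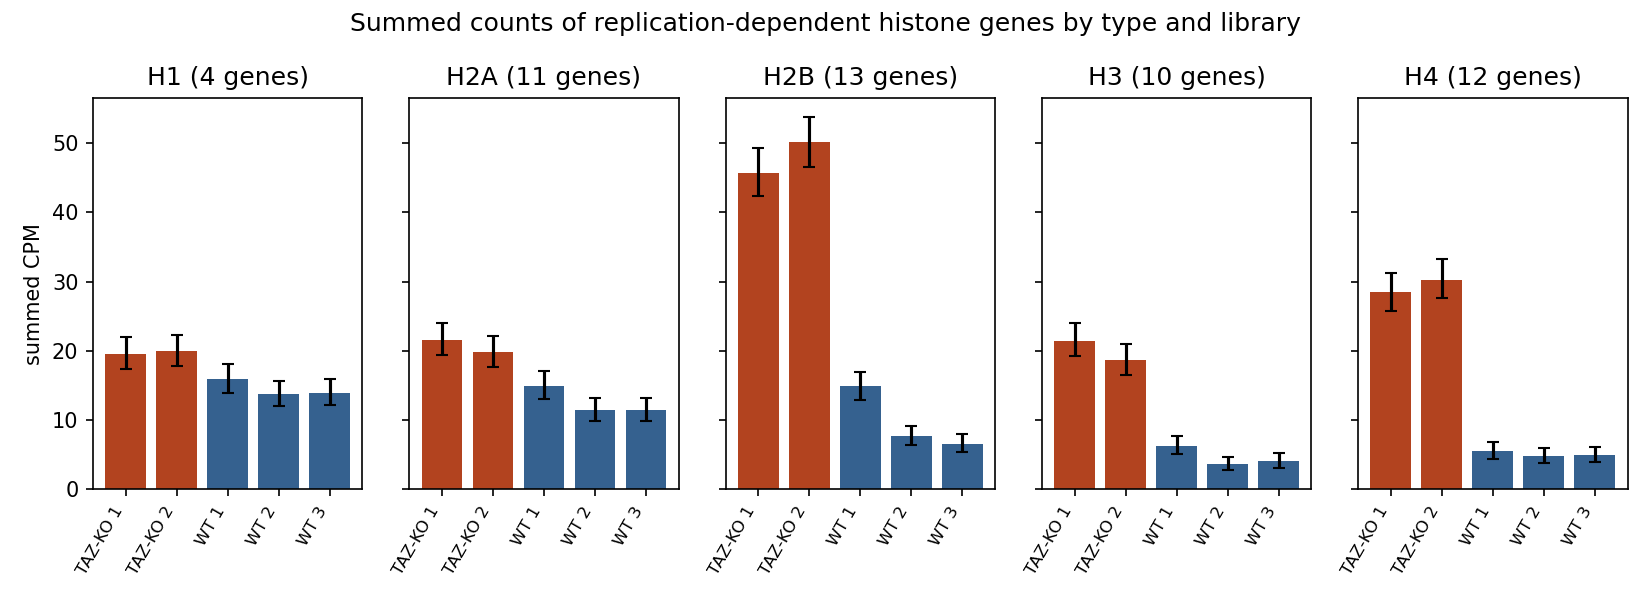
Summed CPM of the listed genes of each histone type (vertical axis, starting at 0) in TAZ-KO clones 1 and 2 (red) and WT clones 1 to 3 (blue), with exact 95% Poisson intervals that cover counting error only. TAZ-KO clones are above every WT clone in each panel, with 5.74-fold for H4 and 1.36-fold for H1.

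The small ratios of H1 and H2A rose when 1 gene each was left out. Without Hist1h1c, which held most H1 counts and hardly differed, the H1 ratio was 1.94, and without Hist3h2a, which was lower in TAZ-KO, the H2A ratio was 3.60. Without the gene with most counts of its type, the ratios of H2B (without Hist2h2be), H3 (without Hist1h3d) and H4 (without Hist1h4i) were 3.04, 2.93 and 3.41. Without their leading gene, each of the 5 types still had a ratio above 1, and H1 remained the lowest. The leading gene was picked by mean CPM over all 5 libraries, so TAZ-KO levels had a part in the choice. Hist1h3d led H3 only through TAZ-KO clones, with a mean of 0.44 CPM in WT clones against 1.33 CPM for Hist1h3c. The lower ratios of H2B, H3 and H4 without these genes are therefore a description.

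Gene by gene, both TAZ-KO values lay above all 3 WT values, or the gene was fully higher for short, in 46 of the 50 histone genes, which held for 19.1% of all listed genes and for 28.0% of those with at most 200 counts over the 5 libraries. Of the 50 genes, 43 had at most 200 counts, and 41 of these 43 were among the 46. Of the 46, 10 untested genes were listed only through their TAZ-KO counts, as given below. By the same rule this held for the tested genes Hist1h2an, Hist1h2bp, Hist1h3b and Hist2h2ab, with at most 5 counts in every WT clone. By type, the 46 were 4 of 4 H1, 10 of 11 H2A, 11 of 13 H2B, 10 of 10 H3 and 11 of 12 H4 genes. In the other direction, Hist3h2a alone was fully lower, with both TAZ-KO values below all 3 WT values (18.0% of all listed genes), and the clones overlapped in Hist1h2bc, Hist1h2bm and Hist1h4j. With each library left out in turn, the count was between 46 and 48 of 50. Leaving out a library can only keep or raise this count, so the range says nothing about stability. The ratio of pooled counts was above 1 in 48 genes, its counting interval lay above 1 in 45 and below 1 in 1, and it held 1 in 4. These intervals cover counting error only and leave out the spread of the clones. The same counts were not made over all genes, so they are a description.

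**Figure D2:**
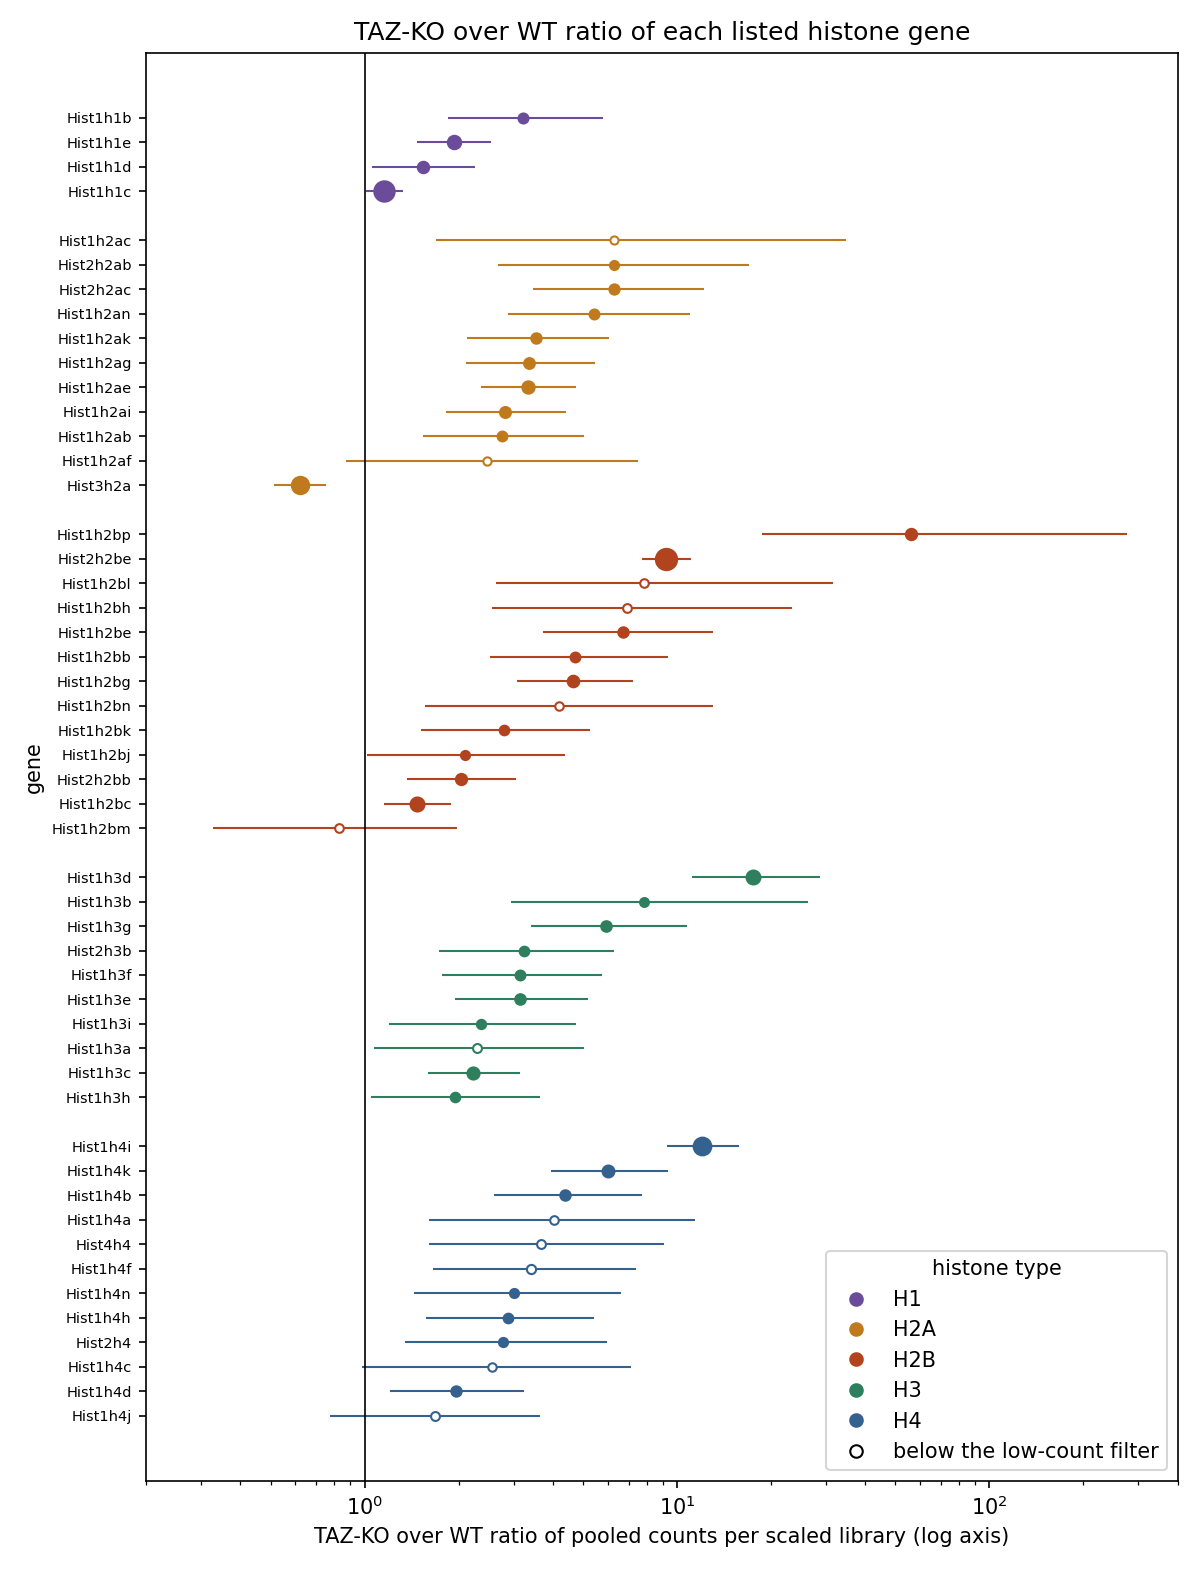
Ratio of pooled counts, TAZ-KO over WT, each divided by the scaled library totals (horizontal log axis), for each of the 50 listed genes, grouped by histone type and sorted within it, with exact 95% intervals for counting error only. Larger symbols have a higher mean CPM, open symbols are the 12 genes below the low-count filter, and the line marks a ratio of 1, with 48 genes to its right and Hist3h2a and Hist1h2bm to its left.

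No single histone gene passed the main test. edgeR's quasi-likelihood test called 0 of 38 tested histone genes at an adjusted p of 0.05, where it called 6 of 11975 genes in all (0.0501%). At an unadjusted p of 0.05, 21 of the 38 were past the threshold and higher in TAZ-KO, as were 7.94% of all tested genes. At an adjusted p of 0.1 these were 4 of the 38 (Hist1h2bp, Hist1h3d, Hist1h4i and Hist2h2be; 0.292% of all tested genes called higher). limma-voom also called 0 of 38, where it called 0.00835% of all tested genes higher. At an unadjusted p of 0.05, limma-voom had 25 of the 38, and 2048 of all 11975 tested genes in either direction. DESeq2, in contrast, called 7 histone genes, all higher in TAZ-KO, against 2.38% of all tested genes called higher. These were Hist1h2be, Hist1h2bg, Hist1h2bp, Hist2h2be, Hist1h3d, Hist1h4i and Hist1h4k. WT clone 1 decided the count: without it edgeR called 25 of 38, all higher in TAZ-KO, but then 19.1% of all 11871 tested genes were called higher as well. A fit with 1 surrogate variable called 5 of 38 (1.90% of all tested genes called higher) and edgeR without the low-count filter 1 of 50 (0.0304%). The low-count filter shaped which genes could be tested. Of the 38, 26 passed it only through their counts in TAZ-KO clones and so had to be higher there. Among these 26 were Hist1h2be, Hist1h2bg, Hist1h2bp and Hist1h3d, which DESeq2 called, so their direction was set in advance. Of the 12 that would pass on the WT libraries alone, 10 were fully higher, where 18.7% of all tested genes were, and 1 was fully lower (Hist3h2a; 18.6% of all tested genes). The median log2 fold change was 0.99 in these 12 and 1.64 in all 38.

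The linker histones, which bind the DNA between nucleosomes, differed least. Hist1h1c (RefSeq symbol H1f2; chromosome 13, 23738808 to 23740367) had 185 and 189 counts in TAZ-KO clones, against 173, 168 and 166 counts in WT clones. All 5 libraries lay within a narrow range, with a log2 fold change of 0.21 (SE 0.25; adjusted p = 0.677, edgeR). Hist1h1e had 60 and 62 counts in TAZ-KO clones, against 35, 22 and 42 counts in WT clones (log2 fold change 0.94, SE 0.43; adjusted p = 0.318, edgeR). Hist1h1d had 29 and 29 counts in TAZ-KO clones, against 18, 29 and 12 counts in WT clones. WT clone 2 thus had as many Hist1h1d counts as the TAZ-KO clones, and only its larger scaled library placed it below them (1.78 CPM, against 1.92 and 1.93 CPM in TAZ-KO clones). Hist1h1b had 22 and 19 counts in TAZ-KO clones, against 9, 5 and 6 counts in WT clones, and was the linker histone gene with the largest log2 fold change (1.65, SE 0.54; adjusted p = 0.236, edgeR).

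Among H2A genes, Hist3h2a ran against the rest. This gene lies alone on chromosome 11 (58954685 to 58956830), away from the large clusters, and its annotated span overlaps Trim17. It had 96 and 60 counts in TAZ-KO clones, against 121, 140 and 132 counts in WT clones. Both TAZ-KO clones were the lowest, with a log2 fold change of -0.68 (SE 0.34) that did not pass the test (adjusted p = 0.339, edgeR). Hist1h2ae, an H2A gene of the large cluster on chromosome 13, had 53 and 55 counts in TAZ-KO clones, against 26, 10 and 15 counts in WT clones (log2 fold change 1.70, SE 0.54; adjusted p = 0.234, edgeR). Hist1h2ai had 32 and 29 counts in TAZ-KO clones, against 24, 3 and 7 counts in WT clones. Hist1h2ag had 27 and 33 counts in TAZ-KO clones, against 20, 6 and 2 counts in WT clones. In the last 2 genes WT clone 1 was near the TAZ-KO clones and far above the other WT clones. The other tested H2A genes (Hist1h2ak, Hist2h2ac, Hist1h2an, Hist1h2ab and Hist2h2ab) had between 11 and 29 counts in TAZ-KO clones and between 1 and 10 counts in WT clones.

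H2B held the gene with the most histone counts in TAZ-KO clones. Hist2h2be (chromosome 3, 96221119 to 96223738, plus strand) had 393 and 442 counts in TAZ-KO clones, against 70, 44 and 28 counts in WT clones. The clones were clearly separated at 27.7 ± 2.48 CPM in TAZ-KO (SD, n = 2) and 3.06 ± 1.54 CPM in WT (SD, n = 3), with a log2 fold change of 3.18 (SE 0.44; adjusted p = 0.0885 with edgeR, 1.5e-08 with DESeq2). It is one of the histone genes known to give polyadenylated transcripts, and its annotated transcript shares no 50-base window with another gene, so its reads are not easily confused with those of other H2B genes. Hist1h2bp (chromosome 13, 21787461 to 21789213, plus strand) had 47 and 60 counts in TAZ-KO clones, against 0, 1 and 2 counts in WT clones. It was thus at or under 3 counts, the detection floor, in every WT clone, with a ratio of 56.0 (exact interval 18.6 to 276; adjusted p = 0.0878 with edgeR, 3.36e-05 with DESeq2). The 0 counts in WT clone 1 allow a level of up to 0.203 CPM. Hist1h2bp was listed and passed the low-count filter only through TAZ-KO clones, so its direction was set in advance.

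The other H2B genes ranged from several-fold higher to no difference. Hist1h2bg had 53 and 39 counts in TAZ-KO clones, against 9, 10 and 12 counts in WT clones (log2 fold change 2.21, SE 0.44; adjusted p = 0.141 with edgeR, 0.0151 with DESeq2). Hist1h2be had 30 and 30 counts in TAZ-KO clones, against 7, 3 and 4 counts in WT clones (log2 fold change 2.70, SE 0.57; adjusted p = 0.144 with edgeR, 0.0319 with DESeq2). One annotated transcript of Hist1h2be overlaps Hist1h1e on the same strand, so its counts are less certain. Hist1h2bc, which is also known to give polyadenylated transcripts, had 53 and 74 counts in TAZ-KO clones, against 71, 38 and 26 counts in WT clones. TAZ-KO clone 1 lay below WT clone 1, and the difference was within the spread of the clones (log2 fold change 0.53, SE 0.55; adjusted p = 0.621, edgeR). Hist2h2be, Hist1h1c and Hist1h2bc, which are all known to give polyadenylated transcripts, had log2 fold changes of 3.18, 0.21 and 0.53. Polyadenylated and stem-loop forms were not counted apart, and the part of either form in the difference was not tested.

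The H3 and H4 genes, which form the core tetramer of the nucleosome, held the other large differences. Hist1h3d (chromosome 13, 23575763 to 23577011, plus strand) had 128 and 106 counts in TAZ-KO clones, against 5, 8 and 8 counts in WT clones. It passed the low-count filter only through TAZ-KO clones, so it had to be higher there to be tested. Every TAZ-KO count was more than 10 times every WT count, and the log2 fold change of 4.11 (SE 0.41) came closest of all histone genes to the threshold of edgeR (adjusted p = 0.0539; 2.2e-10 with DESeq2). Hist1h4i (chromosome 13, 22040636 to 22041362, minus strand) had 237 and 267 counts in TAZ-KO clones, against 31, 20 and 15 counts in WT clones (log2 fold change 3.56, SE 0.42; adjusted p = 0.0755 with edgeR, 4.03e-11 with DESeq2). Hist1h4k had 59 and 52 counts in TAZ-KO clones, against 2, 13 and 14 counts in WT clones (log2 fold change 2.59, SE 0.69; adjusted p = 0.21 with edgeR, 0.0317 with DESeq2). In Hist1h4k, unlike most members, WT clone 1 was the lowest.

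Smaller differences ran through the rest of both types. Hist1h3c had 46 and 42 counts in TAZ-KO clones, against 29, 13 and 20 counts in WT clones. Hist1h3g had 32 and 32 counts in TAZ-KO clones, against 9, 2 and 6 counts in WT clones. Hist1h3e had 31 and 23 counts in TAZ-KO clones, against 11, 8 and 8 counts in WT clones. In each of these H3 genes the clones were separate by genotype, and their log2 fold changes were 1.13 (SE 0.50), 2.52 (SE 0.66) and 1.63 (SE 0.49). Among H4 genes, Hist1h4b had 36 and 20 counts in TAZ-KO clones, against 11, 3 and 6 counts in WT clones. Hist1h4d had 21 and 19 counts in TAZ-KO clones, against 11, 9 and 12 counts in WT clones. Since the replication-dependent H4 genes encode the same protein, reads can be split between them, and single H4 genes are less certain than their sum.

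**Figure D3:**
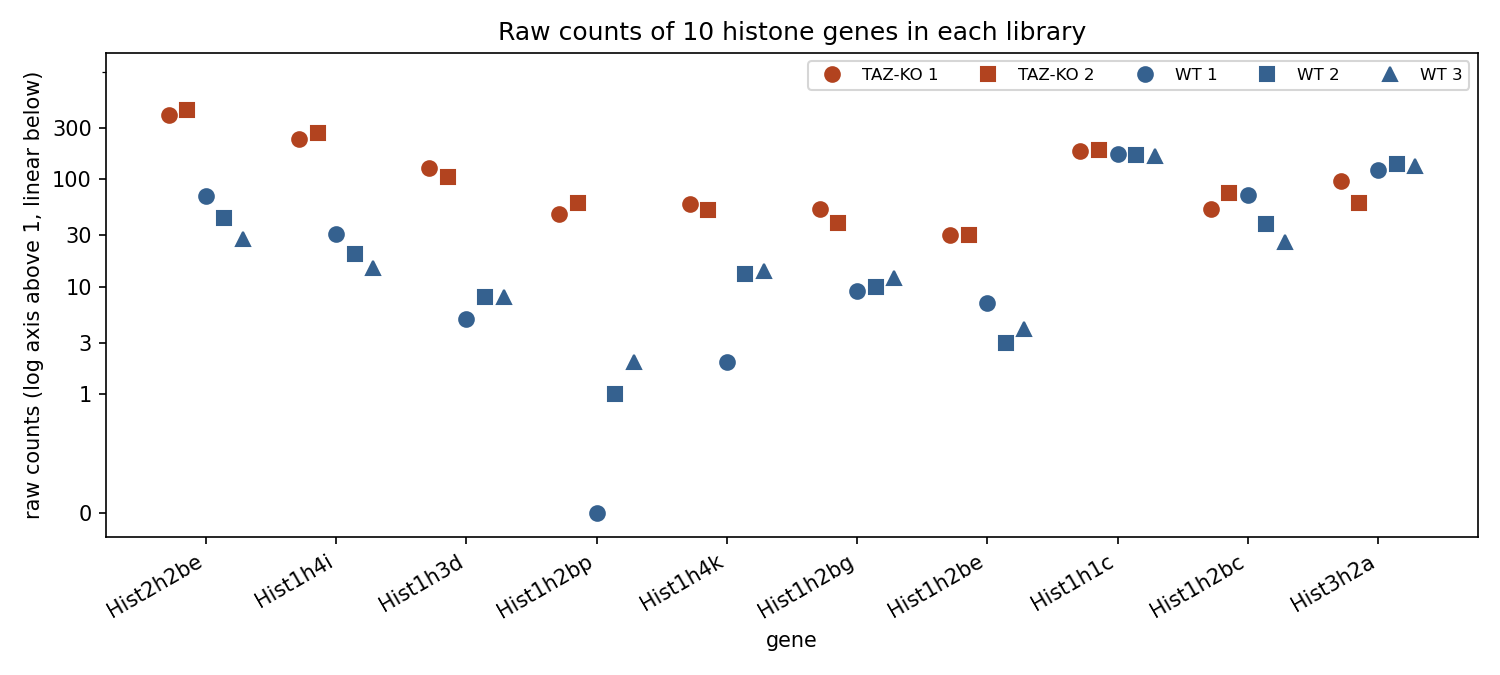
Raw counts (vertical axis, log above 1 and linear below) of the 7 genes that DESeq2 called, from Hist2h2be to Hist1h2be, and of Hist1h1c, Hist1h2bc and Hist3h2a, in TAZ-KO clones (red) and WT clones (blue). The 7 genes have 30 to 442 counts in TAZ-KO and 0 to 70 counts in WT clones, Hist1h1c is level in all 5 libraries, the clones overlap in Hist1h2bc, and Hist3h2a has its lowest counts in TAZ-KO clones.

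A few genes held much of the histone counts in TAZ-KO clones. The 7 genes that DESeq2 called took 45.7% and 47.9% of the counts of all 50 genes in TAZ-KO clones, against 14.6%, 14.7% and 12.5% in WT clones. As these were picked for their difference, this share is a description. The other 43 genes summed to 1123 and 1085 counts in TAZ-KO clones, against 725, 575 and 581 counts in WT clones, and their summed level was 73.3 ± 1.30 CPM in TAZ-KO (SD, n = 2) and 40.1 ± 7.86 CPM in WT (SD, n = 3), a ratio of 1.83. Both TAZ-KO clones were thus above every WT clone in the remainder as well.

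The 12 genes below the low-count filter were too low to be tested, and their counts summed to 109 and 94 in TAZ-KO clones, against 39, 36 and 31 in WT clones. The H2A gene Hist1h2ac had 5 and 7 counts in TAZ-KO clones against 1, 1 and 1 in WT clones, and Hist1h2af had 6 and 5 against 3, 2 and 2. Of the H2B genes, Hist1h2bh had 17 and 5 counts in TAZ-KO clones against 4, 0 and 1 in WT clones, Hist1h2bl had 14 and 6 against 2, 1 and 1, and Hist1h2bn had 7 and 9 against 1, 4 and 1. Hist1h2bm, with 7 and 2 counts in TAZ-KO clones against 11, 1 and 5 in WT clones, showed no order by genotype. The H3 gene Hist1h3a had 12 and 7 counts in TAZ-KO clones against 5, 3 and 5 in WT clones. Of the H4 genes, Hist1h4a had 11 and 7 counts in TAZ-KO clones against 1, 4 and 2 in WT clones, Hist1h4c had 6 and 7 against 2, 2 and 4, Hist1h4f had 9 and 17 against 3, 5 and 4, Hist4h4 had 9 and 12 against 2, 4 and 3, and Hist1h4j had 6 and 10 against 4, 9 and 2. In 10 of these 12 genes both TAZ-KO clones were above every WT clone, and most of the counts were within a few reads of each other. The share was 19.1% of all listed genes and 28.0% of those with at most 200 counts. No listed gene has fewer than 6 counts in its highest library, and these 10 had at most 5 counts in every WT clone. They were thus listed only through TAZ-KO clones, at least 1 of which had to have more counts, so their direction was largely set in advance.

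The histone genes lie in clusters, and the summed counts of each cluster were higher in TAZ-KO clones. Chromosome 13 holds 42 of the 50 genes between 21715763 and 23762386 in 3 blocks (GENCODE, mm10). In the block from 21715763 to 21832196, 11 of 13 genes were fully higher (19.1% of all listed genes) and the summed ratio was 4.03. In the block from 22035870 to 22043676, these were 4 of 4 genes with a ratio of 7.45, most of it in Hist1h4i. In the block from 23531050 to 23762386, they were 24 of 25 genes with a ratio of 2.29. On chromosome 3 (96219865 to 96270132), they were 6 of 6 genes with a ratio of 6.70, most of it in Hist2h2be. The lone Hist4h4 on chromosome 6 had a ratio of 3.70, and the lone Hist3h2a on chromosome 11 one of 0.62.

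Other genes inside the large cluster were not fully higher. Between the outer bounds of the chromosome 13 cluster, 6 other genes were tested (Zfp184, Prss16, Zfp322a, Abt1, Btn1a1 and Hfe). None of these 6 was fully higher, 2 were fully lower, and their median log2 fold change was -0.42. Along the whole of chromosome 13, 27.4% of 416 other tested genes were fully higher, with a median log2 fold change of 0.04, and on chromosome 3 these were 25.5% of 549 genes with a median of 0.10. Over all 11975 tested genes the share was 18.7% and the median was -0.03.

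Several H2A and H2B genes start back to back and share the sequence between them, so they are no independent cases. There were 7 such pairs with gaps of 176 to 296 bases, and in 6 of them both genes were fully higher. Of all listed genes, taken singly, 19.1% were fully higher. In these 6 pairs, Hist1h2an, Hist1h2bl, Hist1h2bn and Hist1h2bp had at most 5 counts in every WT clone. They were thus listed only through TAZ-KO clones, and their direction was largely set in advance. The gap between Hist2h2ac and Hist2h2be was 239 bases, and the pair had 56 and 835 counts over both TAZ-KO clones, against 14 and 142 counts over the WT clones. Hist1h2an and Hist1h2bp, 243 bases apart, had 45 and 107 counts over both TAZ-KO clones, against 13 and 3 counts over the WT clones. The ratio of partners therefore differed, with 5.43 for Hist1h2an and 56.0 for Hist1h2bp. In the exception, Hist1h2ac had 12 counts over both TAZ-KO clones against 3 over the WT clones, while its partner Hist1h2bc overlapped.

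Promoters are shown for the genes with the largest differences, to set their known elements side by side. RefSeq (GRCm38.p6) gave 300 bases around the start, 250 before and 50 after it, for 45 of the 50 genes. Capitals mark, on either strand, the TATA box (TATAAA), the CCAAT box (CCAAT) and the octamer (ATTTGCAT), which is bound by octamer factors at H2B genes, and the sequences run 5′ to 3′ towards the named gene.
Hist2h2ac, chr3:96220831-96221130, minus strand: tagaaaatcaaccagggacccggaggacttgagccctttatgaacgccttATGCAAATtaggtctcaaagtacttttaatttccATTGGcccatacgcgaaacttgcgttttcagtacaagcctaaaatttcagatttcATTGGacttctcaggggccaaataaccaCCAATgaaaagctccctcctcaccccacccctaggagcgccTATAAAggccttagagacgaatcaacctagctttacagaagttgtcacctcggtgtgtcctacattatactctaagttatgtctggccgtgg
Hist1h2bp, chr13:21787238-21787537, plus strand: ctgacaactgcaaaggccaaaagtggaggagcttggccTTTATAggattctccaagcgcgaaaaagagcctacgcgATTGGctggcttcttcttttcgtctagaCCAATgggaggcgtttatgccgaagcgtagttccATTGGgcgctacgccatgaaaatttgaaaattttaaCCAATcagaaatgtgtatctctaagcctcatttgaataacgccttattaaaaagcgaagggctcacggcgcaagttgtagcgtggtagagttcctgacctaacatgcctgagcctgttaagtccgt
Hist1h3d, chr13:23575513-23575812, plus strand: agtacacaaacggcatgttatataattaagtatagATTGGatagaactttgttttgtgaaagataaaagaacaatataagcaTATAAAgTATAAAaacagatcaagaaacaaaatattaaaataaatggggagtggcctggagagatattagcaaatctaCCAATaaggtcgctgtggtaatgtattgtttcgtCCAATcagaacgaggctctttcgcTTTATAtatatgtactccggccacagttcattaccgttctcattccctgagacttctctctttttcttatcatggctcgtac
Hist1h4i, chr13:22041313-22041612, minus strand: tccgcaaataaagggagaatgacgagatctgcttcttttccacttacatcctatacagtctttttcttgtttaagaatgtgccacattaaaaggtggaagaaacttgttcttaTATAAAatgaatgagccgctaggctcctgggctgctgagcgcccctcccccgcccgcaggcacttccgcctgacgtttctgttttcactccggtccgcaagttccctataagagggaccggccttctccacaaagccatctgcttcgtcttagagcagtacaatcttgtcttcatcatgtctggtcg
The first of these reaches the annotated start of Hist2h2be, which runs the other way and was not matched itself. Hist2h2ac and Hist2h2be share an octamer, whereas the Hist1h2an and Hist1h2bp pair has none, and Hist1h4i has neither a CCAAT box nor an octamer in this window. The genes with the largest differences thus held different elements. The TATA box was found in 26 of 45 promoters (13.62% of all 32851 RefSeq promoters), and the CCAAT box in 34 of 34 H1, H2A, H2B and H3 promoters and 3 of 11 H4 promoters (37.41%). The octamer was found in 11 of 22 H2A and H2B promoters and in no other (1.74%), and the H1 box (AAACACA) in 4 of 4 H1 promoters and 2 H2A or H2B promoters (7.18%). A match only says that the letters are present.

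Annotated transcript ends differed between the genes, and each class of ends held mostly fully higher genes. The 19 genes annotated at least 100 bases past the stem-loop had a summed ratio of 2.23, and 17 of them were fully higher (19.1% of all listed genes). The 16 genes annotated under 100 bases past it had a ratio of 3.73 (15 genes), and the 15 without the stem-loop in their annotated transcript had a ratio of 4.44 (14 genes). The genes with most counts fall into different classes (Hist1h1c, Hist3h2a, Hist1h3d and Hist1h4i in the first, Hist1h2bp in the second, Hist2h2be in the third), and the order of the ratios was not tested. Histone genes are also near copies of each other: in 20 of them at least 50% of the 50-base windows of the transcript recur in another gene, and how such reads were counted is not stated in the sources at hand. These 20 genes had a ratio of 3.40, and 20 of 20 were fully higher, while the 30 less shared genes had a ratio of 2.86 with 26 of 30 (19.1% of all listed genes). As reads may be shared between them, the 20 genes are no independent cases.

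Genes of S phase, in which histone genes are active, were compared next. Of 25 S phase genes, 24 had a positive log2 fold change (median 0.73), 14 were fully higher (18.7% of all tested genes), and edgeR called 0 (9 at an unadjusted p of 0.05; 17.4% of all tested genes). DESeq2 called 2, both higher (2.38% of all tested genes). The replicative helicase subunit gene Mcm6 was at 462 and 491 CPM in TAZ-KO clones, against 382, 134 and 165 CPM in WT clones. Mcm5, of the same helicase, was at 389.9 and 374 CPM in TAZ-KO clones, against 314, 185 and 196 CPM in WT clones. Rrm1, a subunit of ribonucleotide reductase, was at 380.3 and 415 CPM in TAZ-KO clones, against 320.2, 280.03 and 332 CPM in WT clones. In Mcm6 and Mcm5, WT clone 1 was nearer to the TAZ-KO clones than to the other WT clones, which was not so for the histone sum.

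The histone counts also differed when set against these S phase genes. The 25 genes summed to 3993 and 4210 CPM in TAZ-KO clones, against 3395, 1687 and 2002 CPM in WT clones (1.74-fold). Per 1000 S phase counts, there were 34.3 and 33.0 histone counts in TAZ-KO clones, against 17.0, 24.5 and 20.5 in WT clones, a ratio of 1.63. Both TAZ-KO clones were above every WT clone, and WT clone 1, with an S phase sum near that of the TAZ-KO clones, had the fewest histone counts per S phase count. Over WT clone 1 alone, the histone sum was 2.39-fold and the S phase sum 1.21-fold. Without the 7 genes that DESeq2 called, the other 43 histone genes had a ratio of 1.83, near the 1.74 of the S phase genes. These 43 genes thus differed by about as much as the S phase genes, and the 7 were picked for their difference. The part of the S phase share in the histone result was not tested beyond these ratios.

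**Figure D4:**
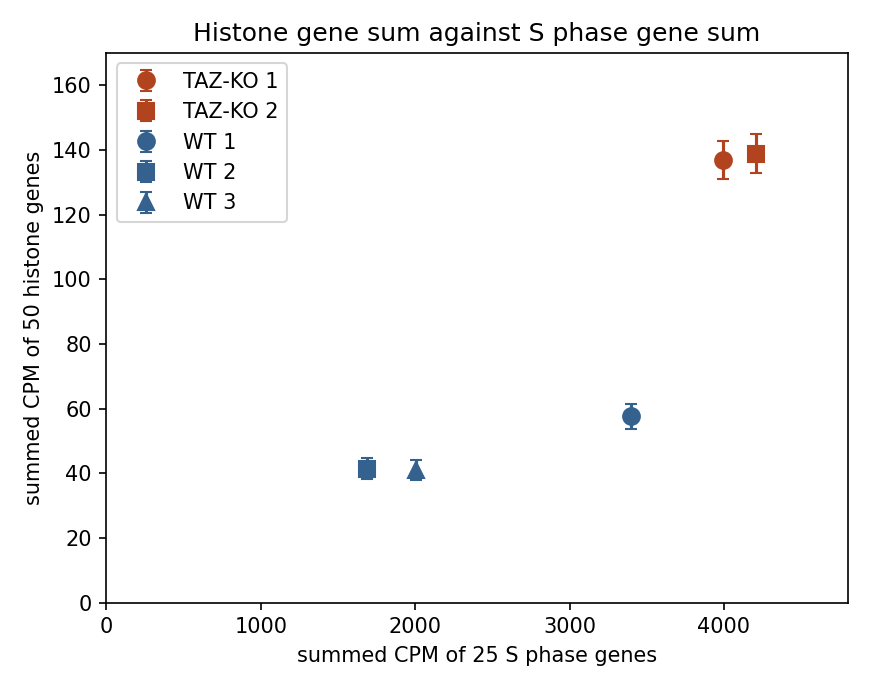
Summed CPM of the 50 histone genes (vertical axis, with exact 95% Poisson intervals for counting error) against summed CPM of the 25 S phase genes (horizontal axis) in each library, both axes starting at 0. WT clone 1 (3395 CPM) is near the TAZ-KO clones on the horizontal axis, but at 57.6 CPM on the vertical axis, against 136.8 and 138.8 CPM in TAZ-KO clones.

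Genes of histone mRNA processing and turnover showed no common direction. Of 20 tested, 10 had a positive log2 fold change, the median was -0.02, 6 were fully higher and 4 fully lower (18.7% and 18.6% of all tested genes), and edgeR and DESeq2 called 0 (1 with edgeR at an unadjusted p of 0.05, against 17.4% of all tested genes). Slbp, the stem-loop binding protein, had 2081 and 1828 counts in TAZ-KO clones, against 1500, 489 and 630 counts in WT clones. WT clone 1 was again nearer to the TAZ-KO clones, and the log2 fold change of 1.19 did not pass the test (SE 0.51; adjusted p = 0.30 with edgeR, 0.183 with DESeq2). Npat, a co-activator of histone gene transcription in S phase, had 1052 and 1232 counts in TAZ-KO clones, against 988, 921 and 1164 counts in WT clones, and its clones overlapped. Srrt, of the cap-binding complex, was at 373 and 382 CPM in TAZ-KO clones, against 283, 171 and 152 CPM in WT clones. Fip1l1 and Sympk, which act in 3' end cleavage, were lower in TAZ-KO clones, with Fip1l1 at 189.8 and 188 CPM in TAZ-KO clones against 199, 392 and 355 CPM in WT clones, and Sympk at 166 and 227 CPM in TAZ-KO clones against 246, 243 and 277 CPM in WT clones.

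The histone variants listed as replication-independent showed no common direction. Of 9 tested, 5 had a positive log2 fold change, with a median of 0.26. Among them 1 was fully higher (H2afz) and 1 fully lower (H1f0), against 18.7% and 18.6% of all tested genes. H1f0, a linker histone of resting and differentiating cells, had 11535 and 16501 counts in TAZ-KO clones, against 32015, 38003 and 33851 counts in WT clones. Both TAZ-KO clones were thus lower, by a log2 fold change of -1.24 (SE 0.27; adjusted p = 0.151 with edgeR, 0.000518 with DESeq2). H2afx, the H2A variant that is phosphorylated at DNA breaks, had 3631 and 3195 counts in TAZ-KO clones, against 3860, 948 and 1373 counts in WT clones. H3f3b, an H3.3 gene, was level at 961 and 932 CPM in TAZ-KO clones, against 1122, 956 and 888 CPM in WT clones, and Cenpa, the centromeric H3 variant, was at 202 and 192 CPM in TAZ-KO clones, against 197, 122 and 175 CPM in WT clones.

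Chaperones and mitotic genes were examined as well. Of 16 histone chaperone genes, 6 were fully higher and 4 fully lower (18.7% and 18.6% of all tested genes), with a median log2 fold change of 0.20. Ssrp1, of the FACT complex, was at 398 and 397 CPM in TAZ-KO clones, against 446, 557 and 619.7 CPM in WT clones. Rbbp4 was at 477 and 459 CPM in TAZ-KO clones against 452, 364 and 379 CPM in WT clones, and Rbbp7 was at 314 and 297 CPM in TAZ-KO clones against 249, 225 and 215 CPM in WT clones, both being histone-binding subunits of chromatin complexes. Of 20 G2/M genes, 7 were fully higher and 1 fully lower (against the same shares), with a median log2 fold change of 0.41. Among these, Top2a, a topoisomerase, was at 1369 and 1079.7 CPM in TAZ-KO clones, against 895, 613 and 692 CPM in WT clones. Mki67, which encodes Ki-67, was at 896 and 798 CPM in TAZ-KO clones, against 768, 377 and 544 CPM in WT clones. Tpx2, a spindle gene, was at 281 and 254 CPM in TAZ-KO clones, against 288, 216 and 329 CPM in WT clones, and its clones overlapped.

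Other RNAs without a poly(A) tail were also examined. Of the 88 listed (small nucleolar and Cajal body RNAs and a few long or catalytic RNAs), 63 were tested, of which 47 had a positive log2 fold change, 26 were fully higher and 2 fully lower (18.7% and 18.6% of all tested genes), and the median was 0.63. edgeR called 0 of these (19 at an unadjusted p of 0.05; 17.4% of all tested genes) and DESeq2 called 6, all higher (2.38% of all tested genes). Over all 88, 37 were fully higher and 4 fully lower (19.1% and 18.0% of all listed genes). As with the histone genes, many have few counts, so the filter bears on which could be tested. In the members with the most counts the clones overlapped, with Malat1 at 492 and 321 CPM in TAZ-KO clones against 339, 304 and 214 CPM in WT clones, Neat1 at 363 and 333 CPM in TAZ-KO clones against 413, 580.2 and 227 CPM in WT clones, and Snora65 at 11.2 and 7.81 CPM in TAZ-KO clones against 6.78, 9.14 and 13.4 CPM in WT clones. The ribosomal precursor Rn45s, named after its values were seen, was at 9135 and 9586 CPM in TAZ-KO clones, against 7527, 5597 and 6876 CPM in WT clones. Rbm7, an adaptor of the nuclear RNA exosome that was also named after its values were seen, had 0 and 0 counts in TAZ-KO clones, against 227, 255 and 272 counts in WT clones. The part of these RNAs and of Rbm7 in the histone result was not tested.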

How the data were processed

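RNA was sequenced from 2 TAZ-KO and 3 WT clones of 4T1 cells. According to the study's methods, the authors trimmed reads with cutadapt, aligned them with STAR to the mouse genome and counted them per gene in the UTAP pipeline. The methods also say that the in vitro data were corrected for batch by surrogate variable analysis, and they name no batches. The submitters' processing notes name mm10 and DESeq2. In the single table that the authors deposited, each gene has its raw counts, regularised log2 values, a signal made by scaling the counts with size factors, and the authors' own comparison (log2 fold change, p-value and adjusted p-value). Only the raw counts were used. No listed gene has fewer than 6 counts in its highest library, and how multi-mapped reads and strand were handled was not stated. The names of the TAZ-KO columns contain YAP, and groups follow the labels.

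Genes were tested with edgeR 4.0.16 (R 4.3.3; quasi-likelihood, TMM, filterByExpr by group, which asks for about 0.65 CPM in 2 libraries, genotype as the only term, Benjamini-Hochberg over 11975 genes, adjusted p of 0.05). Each standard error was taken as the size of the log2 fold change over the root of the F statistic. Ratios of pooled counts have exact binomial and sums exact Poisson intervals (95%), which cover counting error only. The fits were tested on simulated data. Alternatives were DESeq2 1.42.0, limma-voom (limma 3.58.1), 1 surrogate variable (sva 3.50.0), other scalings and filters, the replicate number as a block and leaving out each library. Annotated transcripts come from GENCODE (mm10) and promoters from RefSeq. Named were Wwtr1, in each histone type up to 4 genes with the highest mean CPM, those called by edgeR or DESeq2, tested genes whose clones overlap, untested genes with their counts, Slbp, Npat, H2afx and up to 3 genes with the highest mean CPM of each list. The members and lists were chosen with earlier results of these data known.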

Additional observations from a re-analysis of the deposited data

How the results depend on the processing

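The median log2 fold change of the tested histone genes (1.64) was 1.34 with 1 surrogate variable, between 1.52 (without WT clone 2) and 2.01 (without WT clone 1) with each library left out, and 0.99 in the 12 genes that pass the filter on WT libraries alone. Its sign says little about stability, since 26 of the 38 genes entered only through their counts in TAZ-KO clones. The counts of calls did depend on the fit. Against 6 of all genes and 0 of the histone genes with edgeR, DESeq2 called 692 and 7, the fit with a surrogate variable 528 and 5, and edgeR without the low-count filter 10 and 1. With each library left out the counts were 0 to 4598 of all genes and 0 to 25 of the histone genes, the highest of both being without WT clone 1. At an adjusted p of 0.1, 4 histone genes passed (0.292% of all tested genes were called higher), and 21 did at an unadjusted p of 0.05 (7.94%). With the replicate number as a block, edgeR called 0 of all genes and 0 of the histone genes. The numbers share no stated batch, and deviations of same-numbered clones correlated at -0.12 in both pairs, so the clones were not treated as paired. The log2 ratios of the summed counts (H1 0.44, H2A 0.71, H2B 2.30, H3 2.11, H4 2.52) were 0.96, 1.85, 1.60, 1.55 and 1.77 without the gene with most counts of the type and, for H2B, H3 and H4, 1.04, 1.55 and 1.53 without the 7 genes that DESeq2 called. Of the tested genes, 36 of 38 were fully higher, as were 19 of 21 with under 50% of their windows shared and 10 of 12 that pass the filter on WT libraries alone, fewer because fewer genes enter. The last 3 comparisons, the median in 12 genes and the counts over all 50 genes with a library left out, were chosen after seeing the data. No direction reversed for any of the 21 named histone genes. Of these, Hist1h1b, Hist1h2ag, Hist1h2ai, Hist1h2be, Hist1h2bg, Hist1h2bp, Hist1h3d, Hist1h3e, Hist1h3g and Hist1h4b passed the filter only through TAZ-KO clones. For them an unchanged direction says little about stability. Of the 21, 15 passed the threshold without WT clone 1, where 19.1% of all genes were called higher. With DESeq2 7 passed, with a surrogate variable 5 and without the filter 1. Pseudocounts and filters for normalised values were not run, since counts were used.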
